A study of Mus musculus with 8 samples.

Results

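The BH3-only genes studied here were Bik, Bad, Bmf, Bid, Bcl2l11, Bbc3, Pmaip1, Bnip3 and Bnip3l. They were chosen by name, and their probes were found through the transcript accession that the array gives each probe. All 9 were on the array, among 18749 genes with a probe and a symbol, and all 9 were well above background on all 8 arrays in the probe used, so none entered the 14137 genes tested through 1 genotype alone. RNA came from No. 4 mammary glands of age-matched C57/Bl6 females at lactation day 1. The wild-type (WT) group was 4 dams and the knockout (KO) group was 4 Th-POK-deficient dams, with 1 dam on each one-colour Agilent array. Th-POK, encoded by Zbtb7b, is a zinc finger transcription factor, and the study asked what its loss changes when the gland begins to make milk. The line carries the loss in its germline, so cells other than epithelium lacked Th-POK too.

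Proteins of the BH3-only group start the mitochondrial route of cell death. They bind the guardians Bcl2, Bcl-xL, Bcl-w and Mcl1, or act directly on Bax and Bak, which then open pores in the outer mitochondrial membrane and release cytochrome c. In the mammary gland, Bim (the product of Bcl2l11) and Bmf are known for the death of epithelial cells that have lost contact with the basement membrane and for the clearance of epithelium after weaning. Bnip3 and Bnip3l carry an atypical BH3 region and are best known as receptors that bring mitochondria to autophagosomes. Messenger RNA levels do not show how much of these proteins was active, because phosphorylation, cleavage and binding to the cytoskeleton hold several of them in check.

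The share of probes well above background ran from 66.9% to 75.3% over the WT arrays and from 66.8% to 71.0% over those of KO glands. Each genotype occupied 1 slide of its own, so slide and genotype cannot be told apart in any value below. Zbtb7b was well above background on all 4 WT arrays and on 0 of the KO arrays, where its level was at least 81.5-fold lower (adjusted p = 5.71e-09 by limma). Of 11 milk protein genes on the array, 10 were tested. To be tested, a gene needed signal well above background on every array of at least 1 genotype. All 10 milk protein genes tested were well above background on all 8 arrays, as the tissue label asks, and 0 of them passed the test in either direction. Several of their probes were among the brightest on the array, where quantile normalization sets values by rank (Mfge8 read 18.96 on every array), so small differences between the arrays could not show there. Their summed linear signal was 2040000 to 2180000 in WT and 2050000 to 2300000 in KO glands. In whole-gland RNA, fewer cells of a type and less RNA per cell cannot be told apart.

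All signals below are log2 values after quantile normalization between the arrays, and all differences are KO minus WT on that scale. Levels of different probes were not set against each other, since probes differ in how brightly they bind. Adjusted p-values come from limma with Benjamini-Hochberg adjustment over the 14137 genes, and a gene is called where that value is under 0.05.

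Of the 9 BH3-only genes, 2 were called, Bik and Bcl2l11, and both rose in the KO glands. Over all genes tested, 16.5% were called in either direction and 7.53% were called higher. Bik was called with a difference of at least 2-fold, and 2.14% of all genes met that mark on the higher side. The median difference of the 9 genes was 0.31, against -0.02 over all genes tested. On average 7 of the 9 lay higher in the KO glands, where 47.6% of all genes did. The same 2 genes had all 4 KO arrays above all 4 WT arrays, as did 11.1% of all genes, and 24.1% had genotypes that did not overlap in either direction. The plot of signals by array shows the spread behind each of these counts.

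**Figure D1:**
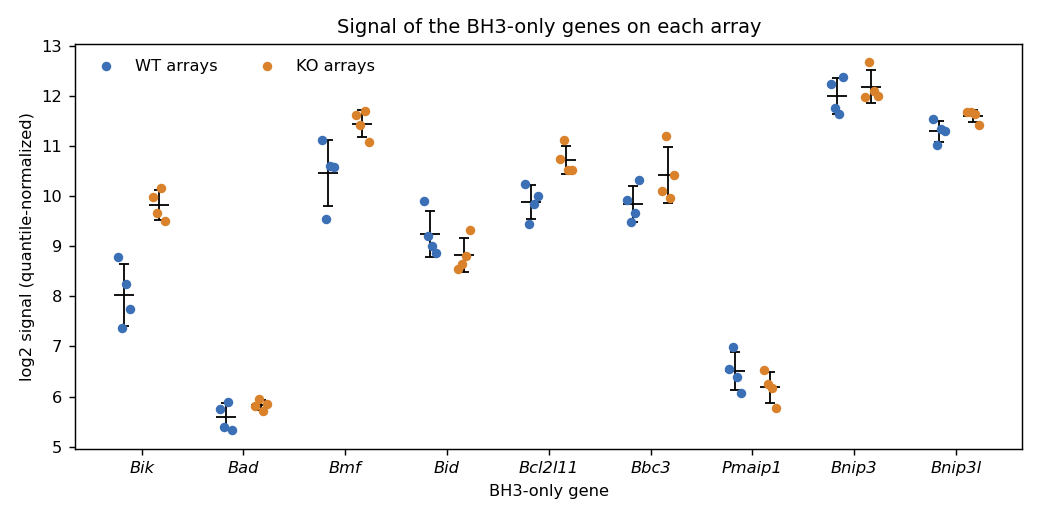
Log2 signal of each BH3-only gene on the 4 WT (blue) and 4 KO (orange) arrays, with black bars at the mean ± SD; heights of different genes are not comparable because each is a different probe. The groups separate fully for Bik, where the highest WT array reads 8.78 and the lowest KO array 9.51, and for Bcl2l11, at 10.25 and 10.52.

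Bik codes for a BH3-only protein of the endoplasmic reticulum that binds Bcl2 and Bcl-xL. It had the largest difference of the 9. Its probe read 8.78, 7.36, 8.25 and 7.74 on WT arrays 1 to 4 and 9.99, 9.66, 10.16 and 9.51 on KO arrays 1 to 4. Every KO array lay above every WT array, by at least 0.74, and the WT arrays were spread over a wider range than the KO arrays. The mean went from 8.03 ± 0.61 (SD, n = 4) to 9.83 ± 0.30 (SD, n = 4), a difference of 1.80 (SE 0.30, 95% confidence interval 1.12 to 2.48) or 3.48-fold, with an adjusted p of 0.012 by limma. Ordered by size of increase, Bik stood 100th of the genes tested. An exact two-sided permutation test over the 70 relabelings of the arrays gave p = 0.0286, the smallest it can give.

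Bcl2l11 codes for Bim, which binds every guardian and can also act on Bax. Its probe read 10.25, 9.45, 9.85 and 10.01 on the WT arrays and 10.75, 11.12, 10.53 and 10.52 on the KO arrays. The genotypes did not overlap, with WT array 2 the lowest of all and KO array 2 the highest. The mean went from 9.89 ± 0.33 (SD, n = 4) to 10.73 ± 0.28 (SD, n = 4), a difference of 0.84 (SE 0.20, 95% confidence interval 0.38 to 1.29) or 1.79-fold, with an adjusted p of 0.029 by limma. The second probe of the gene (A_51_P484880) read 5.98, 5.62, 5.95 and 6.39 on the WT arrays and 6.80, 6.78, 6.48 and 6.75 on the KO arrays, again without overlap. Its difference was 0.72 (SE 0.17, adjusted p = 0.0279 by limma over probes). The call of Bcl2l11 was lost when WT array 2 or 3, or KO array 1, 2 or 3, was left out alone, with adjusted p of 0.0657, 0.068, 0.0696, 0.0655 and 0.062, while the difference stayed between 0.69 and 0.90.

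The RefSeq promoter table (GRCm38.p6) holds windows from 250 bases before to 50 bases after a gene's start for 6 of the 9 genes, in 12 windows; Bik, Pmaip1 and Bnip3l have none there. Bcl2l11 is a textbook target of FOXO factors, so the 250 bases before its first annotated start are printed from chr2:128125788-128126037, plus strand, 5′ to 3′, with capitals marking the FOXO core GTAAACA.
Bcl2l11: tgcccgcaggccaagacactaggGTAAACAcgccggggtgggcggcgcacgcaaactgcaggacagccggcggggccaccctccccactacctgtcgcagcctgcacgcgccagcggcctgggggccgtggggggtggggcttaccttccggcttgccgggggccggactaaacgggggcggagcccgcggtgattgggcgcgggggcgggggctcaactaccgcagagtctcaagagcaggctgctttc
The core began at position -227 relative to the start. Searched on both strands, GTAAACA occurred in 3.65% of all 32851 windows and in 2 of the 12 windows of the BH3-only genes. The other window was at the second annotated start of Bbc3, where the core lay on the opposite strand. The 30 bases around it, chr7:16310083-16310112 on the plus strand, show the core in capitals as it reads on the printed strand.
Bbc3: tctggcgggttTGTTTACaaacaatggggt
Bnip3 is a textbook target of hypoxia-inducible factors, whose core motif is ACGTG. The 30 bases from chr7:138909596-138909625 on the minus strand, which begin at position -119, hold a match on each strand, and these overlap in the CACGTG given in capitals.
Bnip3: cgcacgcgccgCACGTGccacacgctcccc
ACGTG was found in 19.6% of all windows and in 3 of the 12, one each of Bmf, Bbc3 and Bnip3. The STAT palindrome TTCNNNGAA was found in 8.3% of all windows and in 0 of the 12. A match describes these letters only and is no evidence of binding.

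Bmf codes for a BH3-only protein that is held at the actin cytoskeleton through a dynein light chain. Its brightest probe (A_52_P384394) read 11.12, 9.55, 10.60 and 10.59 on the WT arrays and 11.62, 11.42, 11.70 and 11.09 on the KO arrays. The genotypes overlapped by 0.03, between WT array 1 and KO array 4. The difference was 0.99 (SE 0.31, 95% confidence interval 0.29 to 1.70) with an adjusted p of 0.0587 by limma, so Bmf was not called. In a fit with the replicate block the adjusted p was 0.0454, and the KO array was above the WT array of the same number in 4 of 4 pairs, by 0.50 to 1.87.

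The other probes of Bmf separated the genotypes. Probe A_51_P482239 read 7.03, 6.84, 7.12 and 6.99 on the WT arrays and 7.59, 7.26, 7.36 and 7.21 on the KO arrays, a difference of 0.36 (SE 0.12, adjusted p = 0.0678 by limma over probes). Probe A_52_P78830 read 5.99, 4.50, 5.64 and 5.89 on the WT arrays and 6.71, 6.37, 6.62 and 6.48 on the KO arrays, a difference of 1.04 (SE 0.30, adjusted p = 0.0512 by limma over probes). It was well above background on 7 of the 8 arrays, so it entered the fit over probes through 1 genotype alone. Its separation is therefore not separate support for a rise. WT array 2 was the lowest array on all 3 probes of Bmf. Averaging the probes, A_52_P78830 among them, gave the gene an adjusted p of 0.0465, and leaving out WT array 1 gave 0.0269.

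Bad, whose product binds Bcl2 and Bcl-xL until survival kinases phosphorylate it, read 5.76, 5.40, 5.89 and 5.33 on the WT arrays and 5.82, 5.96, 5.71 and 5.85 on the KO arrays. The KO values lay within or just above the WT range. The difference was 0.24 (SE 0.14, 95% confidence interval -0.09 to 0.57, adjusted p = 0.264 by limma).

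Bid, which caspase-8 cleaves to link death receptors to mitochondria, had one of the 2 negative differences. It read 9.91, 9.20, 9.01 and 8.86 on the WT arrays and 8.55, 8.65, 8.81 and 9.32 on the KO arrays. The genotypes overlapped, because KO array 4 read above 3 of the WT arrays. The difference was -0.41 (SE 0.25, 95% confidence interval -0.99 to 0.16, adjusted p = 0.27 by limma).

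Bbc3 and Pmaip1 code for Puma and Noxa, the BH3-only proteins best known as targets of p53. Bbc3 read 9.92, 9.49, 9.67 and 10.32 on the WT arrays and 10.10, 11.21, 9.97 and 10.42 on the KO arrays. KO array 2 stood above the other 3 KO arrays, which lay inside or near the WT range. The difference was 0.57 (SE 0.29, 95% confidence interval -0.09 to 1.23, adjusted p = 0.187 by limma). Pmaip1 read 6.55, 6.99, 6.39 and 6.08 on the WT arrays and 6.53, 6.26, 6.18 and 5.78 on the KO arrays, with overlapping genotypes. Its difference was -0.31 (SE 0.22, 95% confidence interval -0.82 to 0.19, adjusted p = 0.334 by limma), and 0 of 4 pairs were higher in the KO gland.

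Of the mitophagy receptors, Bnip3 read 12.24, 11.77, 11.65 and 12.39 on the WT arrays and 11.98, 12.68, 12.11 and 12.00 on the KO arrays. The genotypes overlapped, and the difference was 0.18 (SE 0.22, 95% confidence interval -0.32 to 0.68, adjusted p = 0.592 by limma). Without both arrays numbered 2 it was -0.07 (adjusted p = 0.877). Bnip3l read 11.54, 11.02, 11.34 and 11.30 on the WT arrays and 11.68, 11.69, 11.65 and 11.42 on the KO arrays. KO array 4 fell below WT array 1 and the other 3 KO arrays lay above every WT array. The difference was 0.31 (SE 0.13, 95% confidence interval 0.01 to 0.61), with an unadjusted p of 0.0446 and an adjusted p of 0.128 by limma. Its second probe gave 0.34 (adjusted p = 0.129).

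**Figure D2:**
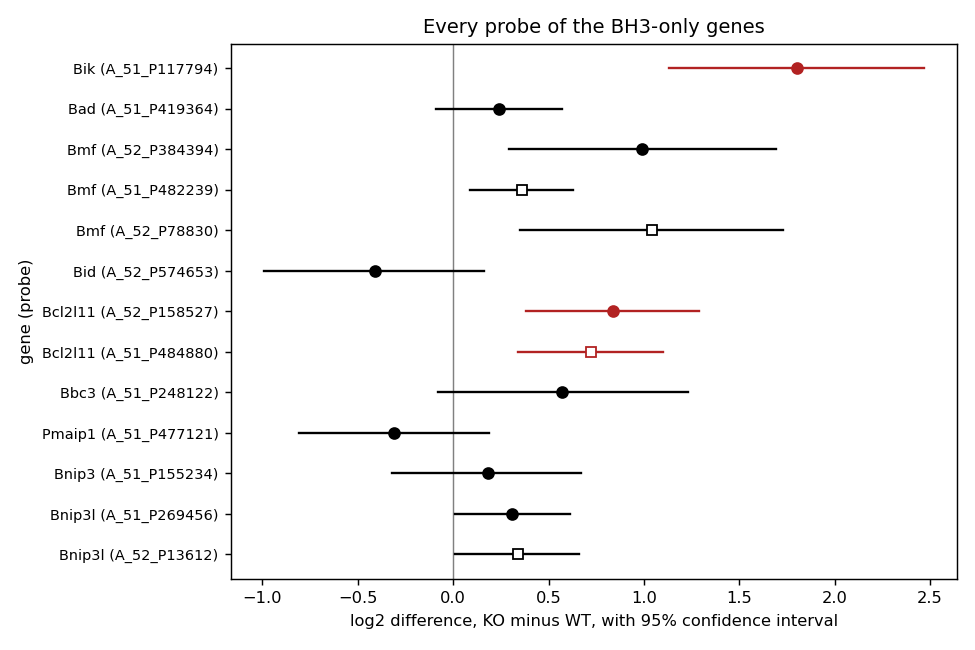
Log2 difference, KO minus WT, of all 13 probes of the BH3-only genes with 95% confidence intervals (n = 4 and 4); filled circles are the probes used for each gene, open squares the further probes, and red marks an adjusted p under 0.05 in the fit over probes. Both Bcl2l11 probes and the 1 Bik probe pass, all 3 Bmf intervals lie above 0, and Bid and Pmaip1 have intervals that cross 0 from below.

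In 5 of the 13 probes all KO arrays lay above all WT arrays, namely those of Bik, both of Bcl2l11 and the dimmer 2 of Bmf. The share over all probes was not counted, and over all genes tested it was 11.1%. Probes of the same gene are not separate evidence, and probe A_52_P78830 of Bmf entered through 1 genotype alone. Among WT arrays, number 2 was the lowest for 5 of the 9 genes (Bik, Bmf, Bcl2l11, Bbc3 and Bnip3l), where it was the lowest WT array for 25.8% of all genes. Number 1 was the highest WT array for 5 (Bik, Bmf, Bid, Bcl2l11 and Bnip3l), against 27.3% of all genes. Among KO arrays, number 2 was the highest for 5 (Bad, Bcl2l11, Bbc3, Bnip3 and Bnip3l), against 21.2%, and number 4 the lowest for 5 (Bik, Bmf, Bcl2l11, Pmaip1 and Bnip3l), against 30.3%. The pair numbered 2 had the widest gap between genotypes for 8 of the 9 genes, all but Bid, where it was the widest of the 4 pairs for 40% of all genes. That gap was 2.30 for Bik, 1.87 for Bmf, 1.66 for Bcl2l11 and 1.72 for Bbc3, and it was negative for Pmaip1, at -0.73. Without both arrays of that number, 0 of the 9 genes were called: Bik had a difference of 1.63 (adjusted p = 0.0624 by limma) and Bcl2l11 one of 0.56 (adjusted p = 0.109 by limma), and 163 of all genes were called.

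**Figure D3:**
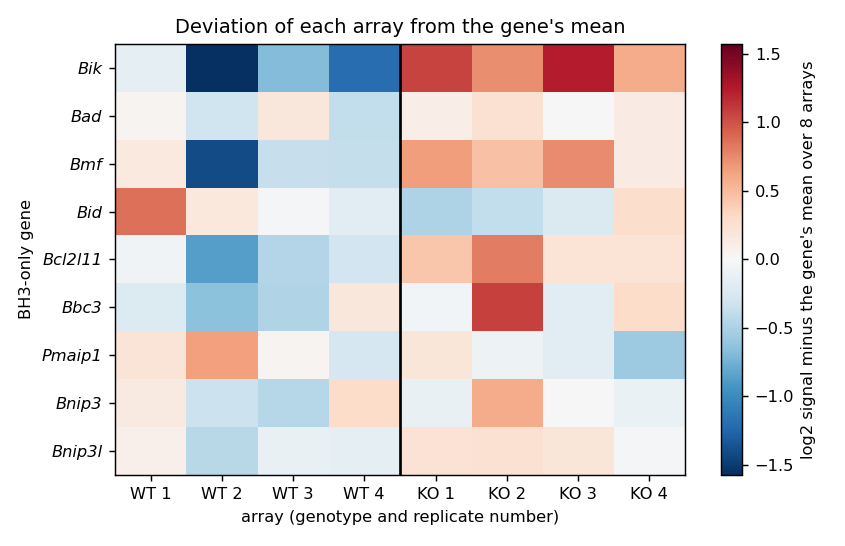
Log2 signal of each BH3-only gene (rows) on each array (columns, WT left of the black line and KO right) minus the mean of that gene over the 8 arrays, with red above and blue below it. Bik shows the strongest contrast, WT array 2 is the darkest blue in the rows of Bik, Bmf and Bcl2l11, and KO array 2 is the darkest red in the rows of Bcl2l11, Bbc3 and Bnip3.

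The genes whose profiles over the 8 arrays were nearest to that of Bik, by the root mean square of the difference between profiles after each gene's mean was removed, were Arhgap44 (0.18 log2 units), Btc (0.19) and Efna5 (0.20). Btc codes for betacellulin, a ligand of the EGF receptor, and Efna5 for an ephrin. Nearest to Bcl2l11 were Ube2h (0.08), a ubiquitin-conjugating enzyme gene, Rusc2 (0.10) and Dapp1 (0.12), which codes for an adaptor that binds phosphoinositides. Differences between genotypes were 1.61, 1.64 and 1.82 for Arhgap44, Btc and Efna5, and 0.81, 0.76 and 0.82 for Ube2h, Rusc2 and Dapp1. That difference is part of each profile, so a gene with a like difference tends to lie near. Shared regulation was not tested.

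Of the guardians that BH3-only proteins bind, 6 genes were tested, of which 1 rose and 1 fell, with a median difference of 0.12. Beside the counts of this and the further lists stand 16.5% of all genes called either way, 7.53% called higher and 47.6% higher on average. The lists were written with earlier results of these data known. Bcl2 read 7.86, 7.91, 7.78 and 7.77 on the WT arrays and 8.57, 8.27, 8.47 and 8.23 on the KO arrays, without overlap, a difference of 0.55 (adjusted p = 0.0176 by limma). Its second probe gave 0.10 (adjusted p = 0.534), so the probes of Bcl2 disagreed. Bcl2l2, the gene of Bcl-w, read 11.38, 11.52, 11.34 and 11.41 on the WT arrays and 10.75, 11.03, 10.92 and 11.17 on the KO arrays, a difference of -0.44 (adjusted p = 0.0351 by limma).

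Neither Mcl1 nor Bcl2l1, the gene of Bcl-xL, was called, with differences of 0.48 (adjusted p = 0.055) and 0.63 (adjusted p = 0.0648). For both, the lowest KO array lay just under the highest WT array. The further probe of Mcl1 gave 0.42 (adjusted p = 0.0742), and those of Bcl2l1 gave 0.53 (adjusted p = 0.0792) and 0.61 (adjusted p = 0.0414). Of the pore formers, Bax differed by 0.22 (95% confidence interval -0.39 to 0.83, adjusted p = 0.583) and Bak1 by -0.10 (95% confidence interval -0.64 to 0.45, adjusted p = 0.798).

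Among 9 tested genes of other proteins that have a BH3 region or carry the Bnip name, 1 rose and 1 fell, and the median difference was -0.02. Bnipl, a relative of Bnip2, read 5.83, 5.74, 6.52 and 5.89 on the WT arrays and 7.10, 7.32, 7.07 and 6.82 on the KO arrays, a difference of 1.08 (adjusted p = 0.0143 by limma). Bnip1, which codes for a SNARE protein of the endoplasmic reticulum, differed by -0.49 (adjusted p = 0.0236), without overlap. Both genes had a second probe that was called in the same direction.

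Of 23 genes of proteins that bind or modify BH3-only proteins, 2 rose and 2 fell, with a median of -0.08, and this share of calls is near the 16.5% of all genes. Ywhah, a 14-3-3 protein gene whose product holds phosphorylated Bad in the cytosol, differed by 0.83 (adjusted p = 0.0109), and Ppp3ca, the catalytic subunit of the phosphatase calcineurin, by 0.32 (adjusted p = 0.0485, or 0.0788 with the replicate block). The kinase genes Akt1 and Rps6ka1 fell, by 0.73 (adjusted p = 0.0206) and 0.74 (adjusted p = 0.0452). Akt1 read 14.66, 15.22, 14.82 and 15.04 on the WT arrays and 14.21, 14.24, 13.95 and 14.41 on the KO arrays, and these ranges did not meet. Its second probe gave -0.80 (adjusted p = 0.063).

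Downstream of the pore, 1 of 14 genes of the apoptosome and of mitochondrial release rose and 2 fell, with a median of -0.18. Apaf1, the scaffold of the apoptosome, differed by 0.48 (adjusted p = 0.0334, or 0.0641 with the replicate block), while its second probe gave 0.11 (adjusted p = 0.49). Endog and Diablo, whose products leave the mitochondrion with cytochrome c, fell by 0.71 (adjusted p = 0.0298) and 0.38 (adjusted p = 0.0369), of which Diablo had an adjusted p of 0.0555 with the block. Of 21 mitophagy genes beside Bnip3 and Bnip3l, 2 rose and 1 fell, with a median of -0.06. Those that rose were Gabarapl1, an autophagosome protein that binds Bnip3l (1.03, adjusted p = 0.0312; second probe 0.65, adjusted p = 0.137), and the autophagy kinase Ulk1 (0.83, adjusted p = 0.0372; second probe 0.51, adjusted p = 0.0827). Pgam5, a mitochondrial phosphatase gene, differed by -0.47 (adjusted p = 0.0316, or 0.0553 with the replicate block).

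**Figure D4:**
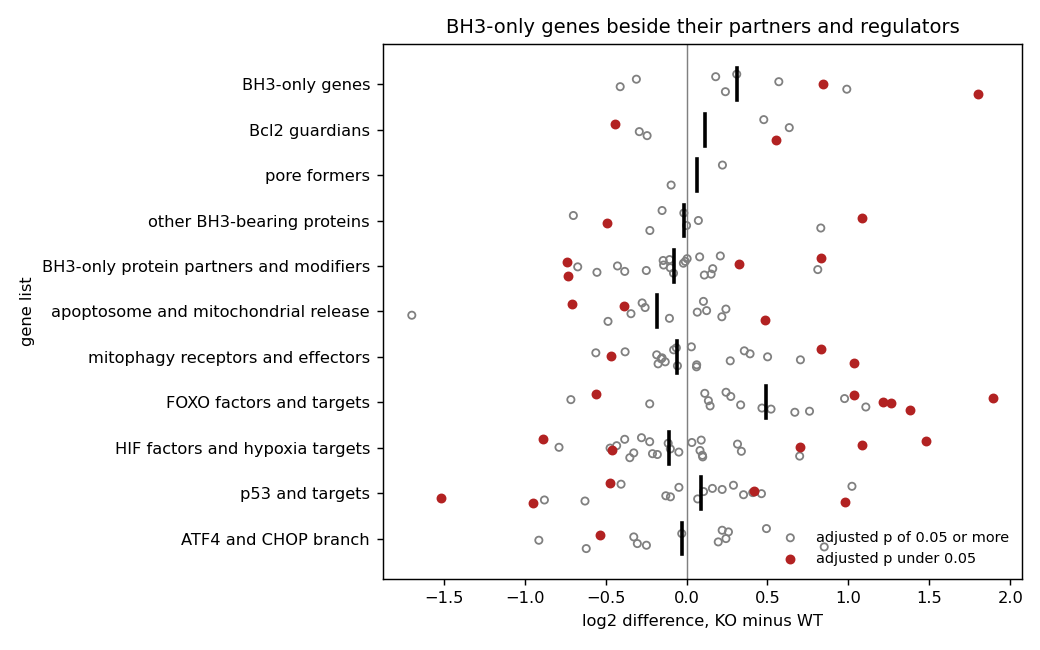
Log2 difference, KO minus WT, of each tested gene in the BH3-only group and in 10 lists of partners and regulators; filled red points have an adjusted p under 0.05, open grey points do not, and black bars are medians. Medians run from -0.18 for the apoptosome list to 0.49 for the FOXO list, with the BH3-only genes at 0.31 and all genes tested at -0.02.

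Lists of other targets of transcription factors known to act on BH3-only genes were also counted. The activity of these factors was not measured, and their part in the BH3-only differences was not tested. Of 20 FOXO factors and targets, 5 rose and 1 fell, and 17 lay higher on average, with a median of 0.49. Among all genes tested, 7.53% were called higher and 47.6% lay higher on average. Pik3ip1, an inhibitor of PI3-kinase, read 8.97, 8.45, 9.06 and 8.82 on the WT arrays and 11.47, 11.02, 10.71 and 9.68 on the KO arrays, a difference of 1.90 (adjusted p = 0.0152 by limma). All KO arrays lay above the WT arrays, with KO array 4 the nearest. The stress gene Gadd45a differed by 1.21 (adjusted p = 0.0183), the sestrin gene Sesn3 by 1.04 (adjusted p = 0.0279) and the superoxide dismutase gene Sod2 by -0.56 (adjusted p = 0.0328). Of the factors themselves, Foxo1 differed by 0.15 (95% confidence interval -0.40 to 0.69, adjusted p = 0.689) and Foxo3 by 0.33 (95% confidence interval -0.19 to 0.85, adjusted p = 0.321). Foxo6, another factor, was among the 5 genes called higher, at 1.26 (adjusted p = 0.0377 by limma).

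Of 26 HIF factors and hypoxia targets, 3 rose and 2 fell, with a median of -0.11. The largest of the named differences were in Pfkfb3 (1.48, adjusted p = 0.0258), a glycolytic regulator, and Mxi1 (1.09, adjusted p = 0.0162), a Myc antagonist. Kdm3a, a histone demethylase gene, differed by 0.70 (adjusted p = 0.0354, or 0.0553 with the replicate block) and Slc2a1, the glucose transporter gene, by -0.89 (adjusted p = 0.014). Hif1a differed by -0.10 (adjusted p = 0.693).

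Of 20 p53 family members and targets, 2 rose and 3 fell, with a median of 0.09. Rrm2b, a ribonucleotide reductase subunit gene, differed by 0.42 (adjusted p = 0.0261), and Zmat3, Aen and Gtse1 by -0.47, -0.95 and -1.51 (adjusted p = 0.0191, 0.0302 and 0.0438). Gtse1 was not well above background on every array, so it entered the test through 1 genotype alone. Its call is therefore not separate support for a fall. With the replicate block Aen had an adjusted p of 0.0509 and Gtse1 one of 0.0689. Trp53 differed by -0.05 (adjusted p = 0.79). Of 13 genes of the ATF4 and CHOP branch of the stress response, 0 rose and 1 fell, which was Eif2ak3, the gene of the kinase PERK (-0.53, adjusted p = 0.0196), and Ddit3, the gene of CHOP, differed by 0.24 (adjusted p = 0.598).

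Markers of several cell types moved with genotype. Their counts stand beside 7.53% of all genes called higher and 47.6% higher on average. The 10 luminal epithelium markers went both ways. Cdh1, Krt18 and Epcam rose (0.88, 0.67 and 0.52, adjusted p = 0.0143, 0.0349 and 0.0403), although Epcam had an adjusted p of 0.0598 with the replicate block. Muc1 fell by 0.78 (adjusted p = 0.0466), and of the other 6 markers 3 were higher and 3 lower on average. The summed linear signal of the list was 243000 to 299000 on the WT arrays and 308000 to 344000 in KO glands. Krt18 and Elf5 were the brightest of the list and weigh most in this sum, so it says little of the other markers.

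Of 10 neutrophil markers, 3 rose and 0 fell. The granule protein genes Camp and Ngp were not well above background on any WT array and were so on all 4 KO arrays. Both entered the test through the KO arrays alone, so their calls are not separate support for a rise. They were at least 8.54-fold and at least 7.11-fold higher in KO glands. In these folds each WT array counts at its detection floor, or at the probe's own signal if brighter. That floor is the dimmest signal of the array that is well above background. The third was Ltf, the gene of lactoferrin, at 1.31 (adjusted p = 0.0066). Its probe was well above background on every array, those of WT glands included. Which cells gave the signal of Ltf was not tested, so its call does not show a rise in neutrophils. Elane was not well above background on any array. None of the other markers tested was called, with differences from -0.15 to 2.19, and of the 10 tested 9 were higher on average and 1 lower. The summed linear signal was 104000 to 148000 in WT and 235000 to 337000 in KO glands. Ltf and Lcn2 carried most of this sum, so it says little of the other markers. Lcn2 itself differed by 0.22 (adjusted p = 0.467 by limma).

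Of 11 adipocyte markers, 2 rose and 0 fell, and 9 were higher on average, with a summed linear signal of 352000 to 489000 in WT and 494000 to 677000 in KO glands. All 5 erythroid markers were higher on average (1 called, median 1.09), at 38700 to 100000 and 97300 to 196000. All 9 fibroblast markers were higher on average (1 called, median 0.34), at 181000 to 233000 and 225000 to 333000. All 8 T cell markers were lower on average (2 called, median -0.32), at 663 to 1860 and 702 to 954. B and plasma cell markers had 1 of 7 called higher, basal epithelium markers 1 of 10 called lower, and macrophage and endothelium markers, 9 of each, 0 called. Each summed signal is weighted toward the brightest genes of its list and says little of the dimmer ones. The part of these cell types in the differences of Bik, Bcl2l11 and Bmf was not tested.

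**Figure D5:**
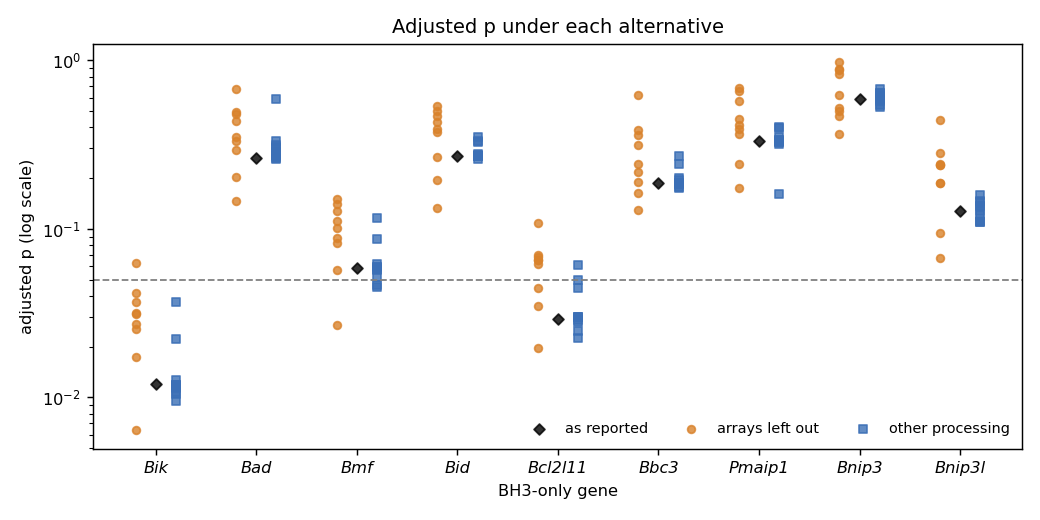
Adjusted p of each BH3-only gene (log axis, dashed line at 0.05) as reported (black), with arrays left out (orange) and under other processing or tests (blue). Bik lies under the line as reported and in 18 of 19 alternatives, Bcl2l11 in 12 of 19, Bmf in 3 of 19, and the other 6 genes in none.

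The plot of adjusted p under each alternative separates the genes. Bik kept its call in 18 of 19 alternatives, with differences from 1.50 to 2.05 and adjusted p from 0.00637 to 0.0624, and the exception was the fit without both arrays numbered 2. Bcl2l11 kept its call in 12 of 19 and Bmf gained one in 3 of 19. Bad, Bid, Bbc3, Pmaip1, Bnip3 and Bnip3l were called in none of the 19. Apart from Bnip3, each of the 9 genes had the same direction in all of them.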

How the data were processed

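The intensities the authors deposited are the processed signals of Agilent Feature Extraction 10.7, which had subtracted background and detrended each array. The log2 values the authors deposited in a table (quantile-normalized, column medians of 6.32, r of at least 0.999 with the log2 intensity of each array) were used as an alternative only. Here the processed intensities were quantile-normalized between the 8 arrays on the log2 scale, flagged outlier spots were left out, and spots of a probe were averaged (41174 probes). Accessions gave 27479 probes a symbol of the GRCm38.p6 RefSeq table. The scanner output names build mm9, so coordinates are printed only for promoter sequence of GRCm38.p6. Probes had to be well above background on every array of WT or of KO, and the brightest probe stood for its gene. Genes were compared with limma 3.58.1 in R 4.3.3, which was tested on simulated data. Probe-level values come from the same fit over probes. Nothing in the labels beyond 1 dam per sample says what the replicate numbers share. Deviations of same-numbered arrays correlated at 0.22, 0.16, 0.30 and 0.28, so pairing by number was tried as an alternative. The methods mention independent sets of biological replicates but do not say whether a set paired WT with KO. The fit reported is unpaired and leaves the number out, as no block is named there. A fit with the replicate block was also run for the BH3-only genes, the named partners and the markers, and its value is given where it changes the call of a gene named.

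The BH3-only genes and all gene lists were chosen with earlier results of these data known. Named partners are the up to 4 genes per list with the smallest p among those called, plus Mcl1, Bcl2, Bcl2l1, Bax, Bak1, Foxo1, Foxo3, Hif1a, Trp53 and Ddit3. Markers of cell types that are named were called, bright or undetected, but not every such marker is named. Called markers of several lists appear only as counts. Krt19, Elf5 and Foxo6 were named after their values were seen. Foxo6 has no block value here and was not among the groups examined for arrays that stood apart.

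Alternatives were 75th percentile scaling, normexp background correction (offset 50, on median signals, since mean signals were not used here), filters on dim probes, probe choice, unmatched probes, the methods' t-test, the deposited table, the replicate block, a variance trend and leaving out each array. The fits without both arrays numbered 2, the further probes and the block for partners and markers were added after the data were seen.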

Additional observations from a re-analysis of the deposited data

Results flagged for a closer look

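Of 98 groups of 4 arrays examined (each genotype for the BH3-only probes and the named partners), 4 held an array that stood apart from the other 3. Chance flags about 1 in 20 groups. In the second Bcl2l11 probe (A_51_P484880), KO array 3 read 6.48 where the other KO arrays read 6.75 to 6.80, and it was still above the WT mean of 5.98. In Bnip3l, KO array 4 read 11.42 against 11.65 to 11.69. Foxo1 read 13.32 on KO array 2 and 12.33 to 12.44 on the other KO arrays. Sesn3 read 9.24 on WT array 2 and 10.01 to 10.12 on the other WT arrays.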

How the results depend on the processing

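The count of all genes called was 2331, and 2 of the 9 BH3-only genes were among them. With the methods' t-test after Benjamini-Hochberg adjustment these were 1389 and 1 (4765 and 4 at an unadjusted p under 0.05), and Bcl2l11 lost its call (adjusted p = 0.0614). Leaving out single arrays gave 515 to 3070 genes and 1 to 3 BH3-only genes, and leaving out WT array 2 or 3, or KO array 1, 2 or 3, gave 767, 983, 756, 946 and 515 genes and left Bik alone called. Without both arrays numbered 2 the counts were 163 and 0, and Bnip3 turned to -0.07. In that fit 63.2% of calls were higher in the KO glands, against 45.7% as reported. With the replicate block 2762 genes were called and 3 of the BH3-only genes, since Bmf passed (adjusted p = 0.0454). The block changed no other call among the 9, although it left Bcl2l11 close to the threshold (adjusted p = 0.0498). Among the partners and markers named, it ended the calls of Ppp3ca, Apaf1, Diablo, Pgam5, Kdm3a, Aen, Gtse1 and Epcam, so that 0 of 14 apoptosome genes rose and 0 of 21 mitophagy genes fell, while 6 of 20 FOXO genes rose and 2 fell, and 2 HIF genes rose and 4 fell. It left 0 erythroid and 0 B and plasma cell markers called and 1 T cell marker lower, and it called 4 neutrophil, 2 fibroblast and 1 macrophage markers higher, 1 milk protein gene lower, and 2 luminal markers higher. Of the genes of the ATF4 and CHOP branch 2 fell, of the p53 genes 1 rose, and of the binders and modifiers 3 fell. The number of arrays limits the precision. Since mean signals were not used here, the normexp alternative took median signals, and it changed no call among the 9.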

Other observations

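Within the WT group, Bik, Bmf, Bcl2l11, Bbc3 and Bnip3l had their lowest signal on array 2, as did 4 of the 10 luminal epithelium markers (Krt18, Krt19, Cdh1 and Epcam) and not the other 6. Elf5, a transcription factor gene of luminal cells, had its highest WT value there, at 16.40 against 16.25 to 16.29 on the other arrays of that genotype. Cdh1, the gene of E-cadherin, read 11.76, 11.16, 11.52 and 11.40 on the WT arrays and 12.31, 12.24, 12.62 and 12.18 on the KO arrays. Muc1, a mucin gene, read 11.10, 10.97, 10.94 and 11.61 on the WT arrays and 10.84, 9.90, 10.46 and 10.29 on the KO arrays. Both separated the genotypes, in opposite directions.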
